A study of Homo sapiens with 18 samples.

Results

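The expression of 10 genes of TRAIL, Fas and death receptor signaling was followed in MDA-MB-231 cells, a human triple-negative breast cancer line, across 6 combinations of oxygen and drug. The genes were the ligand TNFSF10, which encodes TRAIL, the receptors TNFRSF10A, TNFRSF10B, FAS and TNFRSF21, the decoy receptors TNFRSF10C and TNFRSF10D, the adaptor FADD, the initiator caspase CASP8 and the inhibitor CFLAR. They were read through every probe set that the array platform's gene table assigns to 1 of these symbols alone, which gave 41 of 54613 probe sets. Of the 41 probe sets, 31 rose above the presence threshold and were tested among 24151. All 10 genes had at least 1 tested probe set, out of 11197 named genes tested, and a probe set entered through whichever condition it was present in. Cells were kept for 16 h in serum-free medium at 20% O2 (N) or 1% O2 (H), without drug, or with paclitaxel at 50 µM (N tax, H tax) or epirubicin at 10 µM (N epi, H epi). Paclitaxel stabilizes microtubules and epirubicin is an anthracycline that poisons topoisomerase II. The study asked how hypoxia alters the response of the cells to these drugs. Each condition held 2 Affymetrix HG-U133 Plus 2.0 arrays, 12 in all. The series holds 6 more arrays whose title and source name gave different drugs, and these entered only alternative fits.

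TRAIL and Fas ligand kill cells through receptors that carry an intracellular death domain. A ligand-bound receptor gathers FADD, and FADD brings procaspase-8 into a death-inducing signaling complex in which the caspase activates itself and can cut BID to engage mitochondria. Decoy receptors bind TRAIL without passing the signal on, and c-FLIP, the product of CFLAR, takes the place of caspase-8 in the complex.

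The values were GC-RMA signals on the log2 scale, and a value above 3.14 was taken as present, after the presence threshold of the study's methods. Between 41.4% and 42.6% of probe sets were present on each array. The replicates of N epi correlated less with each other (r = 0.989) than those of any other condition (0.994 to 0.999), and N epi replicate 1 was closest to H epi replicate 1, so the member calls in N epi against N are also given without each of its arrays. The 3′ minus 5′ signal of the ACTB control probe sets lay between -0.31 and -0.21 on the epirubicin arrays and between -0.04 and 0.32 on the others, and its part in the epirubicin results was not tested. Among the markers of this line, VIM, CD44, EGFR, AXL and CAV1 were present on 12 of 12 arrays, PGR and CDH1 on 0, ESR1 on 1, and ERBB2 (8.03 to 8.53) and EPCAM (6.01 to 8.02) on 12, although listed for this check as low in the line. Of the hepatoma and keratinocyte markers, ALB, APOB, KRT1, KRT5, KRT14 and IVL were present on 0 arrays and AFP on 2, while TTR (3.21 to 4.36), KRT10 (12.04 to 13.05) and APOA1, at 3.34 on every array, were present on 12. Arrays read bulk RNA, so a lower signal may stand for less transcript in every cell or for fewer cells that carry it, which cannot be told apart here.

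Promoter sequences from RefSeq (GRCh38.p14, 250 bases before to 50 after the start site) were on hand for 6 of the 10 genes. They are shown for TNFSF10 and TNFRSF21, which moved in opposite directions in hypoxia, and were searched on both strands for the core of the hypoxia response element, ACGTG or GCGTG, which HIF-1 is known to recognise. Capitals mark the matches.
TNFSF10, chr3:172523381-172523680, minus strand: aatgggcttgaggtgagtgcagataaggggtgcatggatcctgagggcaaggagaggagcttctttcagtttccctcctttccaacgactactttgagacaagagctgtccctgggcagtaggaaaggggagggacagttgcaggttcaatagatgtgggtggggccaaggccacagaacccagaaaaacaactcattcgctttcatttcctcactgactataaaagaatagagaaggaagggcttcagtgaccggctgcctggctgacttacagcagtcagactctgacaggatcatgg
TNFRSF21, chr6:47309856-47310155, minus strand: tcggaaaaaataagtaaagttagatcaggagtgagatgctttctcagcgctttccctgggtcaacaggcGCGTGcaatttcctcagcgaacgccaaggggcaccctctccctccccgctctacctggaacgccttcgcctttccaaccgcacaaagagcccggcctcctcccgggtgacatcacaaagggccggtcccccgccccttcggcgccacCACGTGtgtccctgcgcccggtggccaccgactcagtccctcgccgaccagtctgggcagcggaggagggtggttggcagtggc
The TNFSF10 window held 0 matches, which says only that these letters are not in these 300 bases. The TNFRSF21 window held 3 matches, of which the pair in CACGTG overlap on opposite strands. Of 35116 promoters of this length in the table, 48.4% held either core, 21.4% ACGTG and 36.5% GCGTG.

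In H against N, TNFSF10 and TNFRSF10D rose and TNFRSF10A, TNFRSF21 and CFLAR fell, which is 2 higher and 3 lower of 10, where 4.26% of all named genes were called higher and 5.75% lower. In H tax against N tax, TNFSF10 rose and TNFRSF21 fell, against 0.982% of named genes higher and 0.268% lower. In H epi against N epi, limma called 0 of the 10 at an adjusted p under 0.05, where 0.214% of named genes were higher and 1.49% lower. At an unadjusted p under 0.05 there were 3 of 10, and no share of named genes was computed at that threshold. All calls are by limma, adjusted by Benjamini-Hochberg across all 24151 tested probe sets, and each gene is represented by its tested probe set of highest mean.

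Paclitaxel in normoxia (N tax against N) raised TNFRSF10A and FAS and lowered TNFRSF10D and TNFRSF21, where 8.94% of named genes rose and 15.0% fell. In hypoxia (H tax against H), TNFRSF10A, FAS and CFLAR rose and TNFRSF10D and TNFRSF21 fell, where 13.3% rose and 18.2% fell. Epirubicin in normoxia (N epi against N) raised TNFRSF10D and lowered TNFRSF10A, FAS, TNFRSF21, FADD, CASP8 and CFLAR, so that 6 of 10 fell where 30.8% of named genes fell and 24.2% rose. In hypoxia (H epi against H), TNFSF10, TNFRSF10B, FAS, FADD and CASP8 fell and TNFRSF10C and CFLAR rose, where 36.2% of named genes fell and 29.5% rose. The CFLAR rise was that of its brightest probe set alone, and other CFLAR sets fell past the test. The TNFRSF10C set sat at 1 repeated value on 9 of 12 arrays. The median difference of the 10 genes was -0.49 in N epi against N and -0.60 in H epi against H on the log2 scale, beside -0.01 and -0.03 over all named genes tested. In the other comparisons of 2 conditions it lay between -0.16 and 0.11. The comparisons share arrays (N with 3 of them, H with 3), so they are not independent of each other.

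The split of the epirubicin calls moved with the scaling of the arrays. Of the named genes called in N epi against N, 44.0% were higher, which became 66.1% after centring each array on its median, and the members went from 1 higher and 6 lower to 1 and 4. In H epi against H the share went from 44.9% to 66.0% and the members from 2 higher and 5 lower to 5 and 4. Median centring moved the median of all probe sets by 0.41 and 0.54 in these comparisons, and the falls of FAS, FADD and CASP8 in both, and of TNFSF10 in hypoxia, stayed past the test under it.

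**Figure D1:**
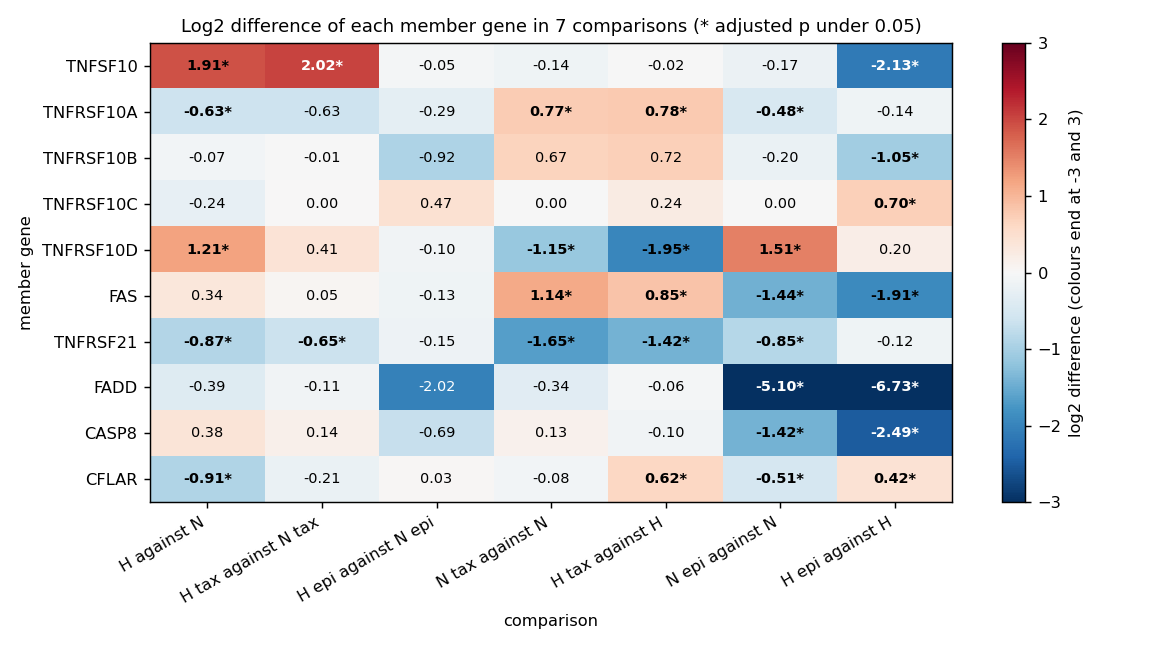
Log2 difference of each member gene (rows, 1 probe set a gene) in the 7 comparisons of 2 conditions (columns), with red for higher, blue for lower and an asterisk for an adjusted p under 0.05. The deepest falls were those of FADD in both epirubicin comparisons (-5.10 and -6.73), and TNFSF10 was higher in hypoxia without drug and with paclitaxel (1.91 and 2.02) but not with epirubicin (-0.05).

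TNFSF10 encodes TRAIL, the ligand of TNFRSF10A and TNFRSF10B. On 202688_at the N arrays read 6.89 and 7.10, and the H arrays 9.08 and 8.72. Paclitaxel gave 6.46 and 7.25 (N tax) against 8.88 and 8.88 (H tax). Epirubicin gave 6.50 and 7.15 (N epi) against 6.72 and 6.82 (H epi). The arrays of H and H tax were thus high and did not overlap with any of the other 8, which lay between 6.46 and 7.25. In H against N the signal was 3.75-fold higher (log2 difference 1.91 ± 0.29 SE, adjusted p = 0.00668), and in H tax against N tax 4.07-fold higher (2.02 ± 0.29, adjusted p = 0.014). In H epi against N epi the difference was -0.05 (95% interval -0.71 to 0.60, adjusted p = 0.978).

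The drugs did not move TNFSF10 past the test in normoxia, with differences of -0.14 for paclitaxel (interval -0.80 to 0.52) and -0.17 for epirubicin (-0.83 to 0.49). In hypoxia paclitaxel left it at -0.02 (interval -0.68 to 0.64) against H, while epirubicin lowered it 4.37-fold (-2.13 ± 0.29, adjusted p = 0.000301). Ranked by mean, H (8.90 ± 0.26 SD) and H tax (8.88) stood above N (6.99 ± 0.15), followed by N tax (6.85 ± 0.56), by N epi (6.83 ± 0.46) and last by H epi (6.77 ± 0.07), and of the neighbours H and H tax, N and N tax, and N epi and H epi did not differ past the test. H tax and N did not overlap, while N tax and N epi did, and these pairs were not tested. The other probe sets of TNFSF10 moved the same way. On 202687_s_at H was 2.05 above N and H tax 2.04 above N tax, and on 214329_x_at the differences were 1.61 and 1.16, all past the test (adjusted p = 0.00462 to 0.0486). Between H epi and H they were -1.84 and -1.81, both past it. The call on 202688_at in H against N was lost without N replicate 1 or H replicate 1 (adjusted p = 0.053 and 0.0608). That in H tax against N tax was lost without N tax replicate 1, H tax replicate 1 or H tax replicate 2 (0.0585 to 0.0747) and with no presence filter (0.0741).

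**Figure D2:**
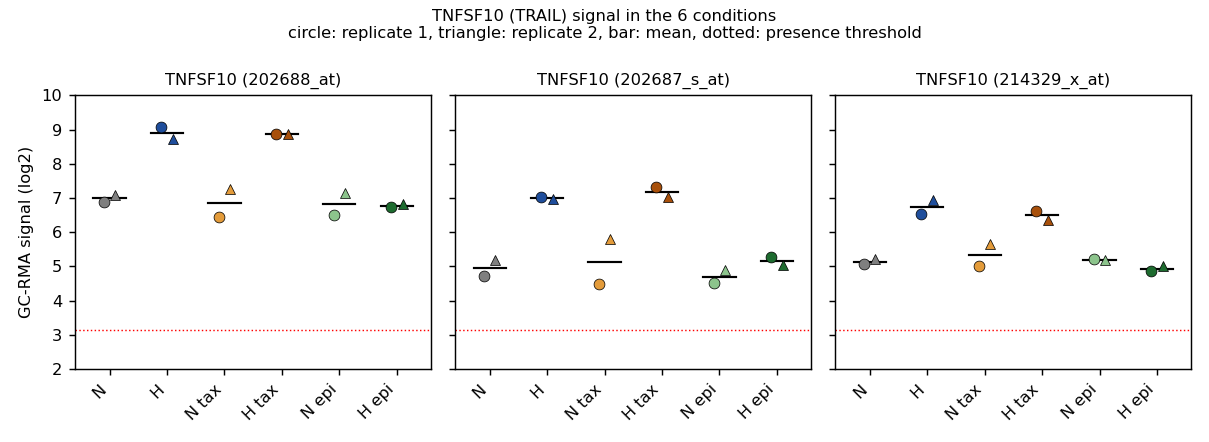
GC-RMA signal (log2) of the 3 TNFSF10 probe sets on each of the 12 arrays, by condition, with replicate 1 as a circle, replicate 2 as a triangle, the mean as a bar and the presence threshold as a dotted line. On each probe set the arrays of H and H tax sat above those of the other 4 conditions, H epi included.

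The 5 named genes whose signal followed that of TNFSF10 most closely over the 12 arrays were ANGPTL4 (Pearson r = 0.972), HK2 (0.964), PPP1R3B (0.963), CFAP96 (0.955) and PGK1 (0.954), given as a description since the arrays share their conditions. ANGPTL4 encodes a secreted inhibitor of lipoprotein lipase, HK2 and PGK1 are glycolytic enzymes, and PPP1R3B targets a phosphatase to glycogen. HK2 averaged 8.14 (N), 10.67 (H), 8.16 (N tax), 10.63 (H tax), 7.53 (N epi) and 7.55 (H epi). As for TNFSF10, H and H tax were high and H epi was not. PPP1R3B and CFAP96 were above the presence threshold in H and H tax alone, with means of 2.23 to 2.30 and 2.38 to 2.81 in the other 4 conditions, so their likeness rests on a contrast of present with absent.

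TNFRSF10A and TNFRSF10B encode DR4 and DR5, the TRAIL receptors that carry a death domain. TNFRSF10A on 231775_at read 7.96 and 7.93 (N), 7.25 and 7.37 (H), 8.72 and 8.72 (N tax), 8.11 and 8.07 (H tax), 7.24 and 7.69 (N epi) and 7.17 and 7.17 (H epi). The paclitaxel arrays were the highest at each oxygen level, and each drug group lay clear of its control. Paclitaxel raised it 1.71-fold in normoxia (0.77 ± 0.15, adjusted p = 0.00724) and 1.72-fold in hypoxia (0.78 ± 0.15, adjusted p = 0.0049). Hypoxia lowered it 1.55-fold without drug (-0.63 ± 0.15, adjusted p = 0.0322), and by the same -0.63 with paclitaxel, where it missed the test (adjusted p = 0.105). The fall without drug was lost when any of the 4 arrays of N and H or either N tax array was left out (0.055 to 0.188), and with no presence filter (0.0773). The fall in N epi against N (-0.48, adjusted p = 0.0236) was lost after quantile normalization (-0.13) and median centring (-0.07), with no presence filter (adjusted p = 0.0535), and without N replicate 1, N replicate 2 or N epi replicate 1 (-0.25 without the last, adjusted p = 0.118). Without N epi replicate 2 it was -0.71. The difference of -0.14 between H epi and H did not pass the test, and was past it in the other direction after quantile normalization (0.35, adjusted p = 0.032) and median centring (0.40, adjusted p = 0.0357). H epi against N epi gave a call without N epi replicate 1 (-0.52, adjusted p = 0.0229) but not without replicate 2 (-0.07). On the other probe sets paclitaxel in hypoxia gave 1.33 (241371_at) and 0.72 (1552648_a_at), both past the test. In H against N both sets kept the direction of the fall but missed the test (adjusted p = 0.113 and 0.0765, in the same order). In N epi against N they gave -0.38 and -0.21, which missed it too (adjusted p = 0.372 and 0.259). With paclitaxel in normoxia the rise of 0.91 on 241371_at also missed it (adjusted p = 0.0902).

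TNFRSF10B on 209295_at read 10.54 and 10.78 (N), 10.75 and 10.43 (H), 11.54 and 11.12 (N tax), 11.59 and 11.03 (H tax), 10.00 and 10.92 (N epi) and 9.57 and 9.50 (H epi). The paclitaxel arrays were above their controls and the H epi arrays were the lowest. On this probe set paclitaxel gave 0.67 in normoxia (interval -0.05 to 1.38, adjusted p = 0.17) and 0.72 in hypoxia (0.01 to 1.44, adjusted p = 0.122), which did not pass. On 209294_x_at and 210405_x_at, which are dimmer, the same comparisons gave 0.97 and 1.00 in normoxia and 1.17 and 1.33 in hypoxia, all past the test (adjusted p = 0.00575 to 0.0256). Epirubicin in hypoxia lowered TNFRSF10B 2.07-fold (-1.05 ± 0.31, adjusted p = 0.0171). This call was lost without H replicate 1, H epi replicate 1 or H epi replicate 2 (adjusted p = 0.0591 to 0.0993), with no presence filter (0.073) and after median centring (-0.52, adjusted p = 0.108). In normoxia the N epi arrays lay on both sides of N, at -0.20 (interval -0.92 to 0.51). H epi was lower than N epi past the test when N epi replicate 1 was left out (-1.38, adjusted p = 0.0166) and not when replicate 2 was (-0.46, adjusted p = 0.628).

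TNFRSF10C encodes DcR1, a TRAIL decoy anchored to the membrane by a lipid tail. Of its 4 probe sets only 234644_x_at passed the presence filter, and it sat within 0.01 of 3.395 on 9 of 12 arrays, which leaves little range to read a change from. The others were H replicate 2 at 2.91, below the presence threshold, and H epi at 3.51 and 4.20. H epi was above H by 0.70 (adjusted p = 0.0219), a call that was lost without H replicate 2 (0.47, adjusted p = 0.149) or H epi replicate 2 (0.36, adjusted p = 0.124) and with no presence filter (0.0763). The other 3 probe sets lay between 2.23 and 2.59 on all 12 arrays, under the presence threshold.

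TNFRSF10D encodes DcR2, a TRAIL decoy with a truncated death domain. On 227345_at the N arrays read 8.16 and 8.15, and the H arrays 9.52 and 9.22. Paclitaxel gave 7.15 and 6.88 (N tax) against 7.63 and 7.21 (H tax). Epirubicin gave 9.44 and 9.91 (N epi) against 9.65 and 9.50 (H epi). The paclitaxel arrays were the lowest, the N arrays lay above them, and the H and epirubicin arrays were the highest, with no overlap between these bands. Hypoxia raised it 2.32-fold without drug (1.21 ± 0.21, adjusted p = 0.0105), a call lost without N replicate 1, N replicate 2 or H replicate 1 (0.0649 to 0.0854). Paclitaxel lowered it 2.22-fold in normoxia (-1.15 ± 0.21, adjusted p = 0.00579) and 3.86-fold in hypoxia (-1.95 ± 0.21, adjusted p = 0.00038), the direction opposite to that of TNFRSF10A. Epirubicin raised it 2.86-fold in normoxia (1.51 ± 0.21, adjusted p = 0.000631). The rise was 1.75 without N epi replicate 1 (adjusted p = 0.000972) and 1.28 without replicate 2 (adjusted p = 0.00241). In hypoxia the difference with epirubicin was 0.20 (interval -0.27 to 0.68), which became 0.74 and passed the test after median centring (adjusted p = 0.00564). The dimmer probe set 210654_at went the same way in these comparisons, past the test for epirubicin in normoxia (1.39, adjusted p = 0.00434) and paclitaxel in hypoxia (-1.27, adjusted p = 0.0113).

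FAS encodes the receptor of Fas ligand and is a known target of p53. On 204780_s_at it read 6.39 and 6.61 (N), 6.76 and 6.94 (H), 7.53 and 7.76 (N tax), 7.63 and 7.76 (H tax), 4.94 and 5.20 (N epi) and 5.03 and 4.85 (H epi). The 3 drug settings formed separate bands at both oxygen levels, with paclitaxel highest and epirubicin lowest. Paclitaxel raised FAS 2.21-fold in normoxia (1.14 ± 0.15, adjusted p = 0.00146) and 1.80-fold in hypoxia (0.85 ± 0.15, adjusted p = 0.00379). Epirubicin lowered it 2.71-fold in normoxia (-1.44 ± 0.15, adjusted p = 0.000202) and 3.75-fold in hypoxia (-1.91 ± 0.15, adjusted p = 2.51e-05), and the difference in normoxia was -1.31 without N epi replicate 1 (adjusted p = 0.00121) and -1.57 without replicate 2. Hypoxia moved it by 0.34 without drug (adjusted p = 0.21), 0.05 with paclitaxel and -0.13 with epirubicin, none past the test. The 3 dimmer probe sets had the same signs in the 4 drug comparisons. Between H epi and H, 204781_s_at fell by 1.63 and 215719_x_at by 1.78, while 216252_x_at was below the presence threshold on both H epi arrays and so at least 2.18-fold lower. In normoxia the fall of -0.95 on 215719_x_at missed the test (adjusted p = 0.051), as did the rise of 0.57 on 204781_s_at in H tax against H (0.117).

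TNFRSF21 encodes DR6, a receptor of the family that carries a death domain but does not bind TRAIL. On 218856_at it was 13.25 and 13.36 (N), 12.37 and 12.51 (H), 11.73 and 11.58 (N tax), 10.99 and 11.04 (H tax), 12.49 and 12.43 (N epi) and 12.42 and 12.21 (H epi). The N arrays were the highest and the H tax arrays the lowest, and N overlapped with no other condition. Hypoxia lowered it 1.83-fold without drug (-0.87 ± 0.12, adjusted p = 0.00464), and this call stood under each of the 12 omissions of 1 array. With paclitaxel the fall was 1.56-fold (-0.65 ± 0.12, adjusted p = 0.0438), and it was lost on leaving out any array but those of H epi (10 of 12 omissions, adjusted p = 0.0553 to 0.186). It was also lost with a replicate block (0.0743), with no presence filter (0.0536), after median centring (0.136) and in a fit of both conditions alone (0.229). With epirubicin the difference was -0.15 (interval -0.42 to 0.12). Paclitaxel lowered it 3.14-fold in normoxia (-1.65 ± 0.12, adjusted p = 0.000162) and 2.68-fold in hypoxia (-1.42 ± 0.12, adjusted p = 0.000147). Epirubicin lowered it 1.80-fold in normoxia (-0.85 ± 0.12, adjusted p = 0.000707). This was -0.88 without N epi replicate 1 (adjusted p = 0.00326), -0.82 without replicate 2 (0.00288) and -0.44 after median centring (0.0276). The difference of -0.12 between H epi and H missed the test but passed it in opposite directions under other scalings, at -0.34 after quantile normalization (adjusted p = 0.0308) and 0.41 after median centring (0.0298). The dimmer 214581_x_at fell in H against N (-1.08, adjusted p = 0.013) and with paclitaxel (-1.71 and -1.15), and rose by 0.62 in H epi against H (adjusted p = 0.021). It missed the test in H tax against N tax (-0.52, adjusted p = 0.313) and in N epi against N (-0.40, adjusted p = 0.115). Its promoter is the one printed above that held 3 matches of the core.

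**Figure D3:**
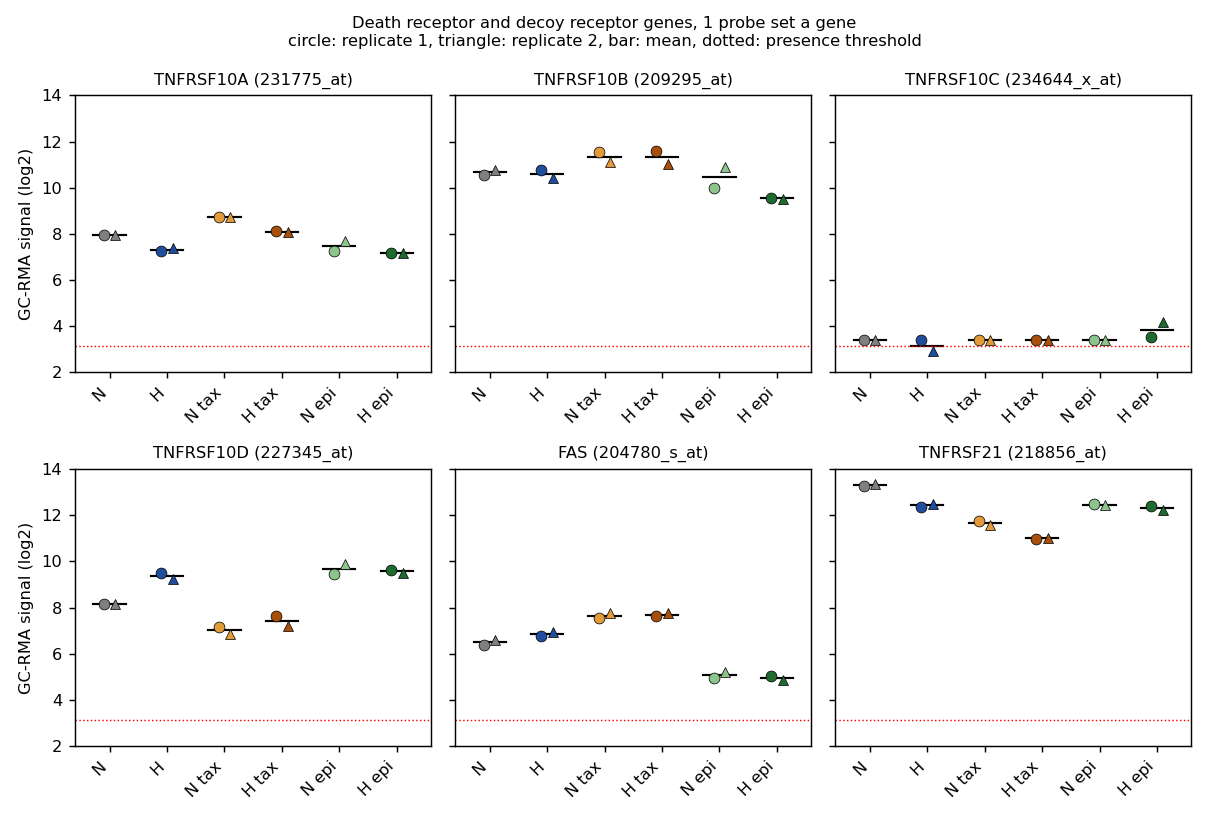
GC-RMA signal (log2) of the 6 receptor genes, 1 probe set each, on the 12 arrays by condition, with replicates as circles and triangles, means as bars and the presence threshold as a dotted line. With paclitaxel TNFRSF10A and FAS were above and TNFRSF10D and TNFRSF21 below their controls at both oxygen levels, while TNFRSF10C lay close to the threshold on all arrays but H epi replicate 2 (4.20).

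FADD encodes the adaptor that links death receptors to caspase-8, and it showed the widest differences of the 10 genes. Its only probe set, 202535_at, read 11.44 and 11.44 (N), 10.97 and 11.13 (H), 11.12 and 11.08 (N tax) and 10.94 and 11.04 (H tax). Epirubicin gave 5.18 and 7.50 (N epi) against 4.44 and 4.20 (H epi). All 8 arrays without epirubicin lay within 10.94 to 11.44, and all 4 with it were lower, though still above the presence threshold. The fall was 34.3-fold in normoxia (-5.10 ± 0.58, adjusted p = 0.000301) and 106-fold in hypoxia (-6.73 ± 0.58, adjusted p = 3.69e-05). The N epi arrays differed by more than any other pair of this gene (mean 6.34 ± 1.64 SD), and the fall in normoxia was -6.26 without replicate 2 and -3.94 without replicate 1, past the test both ways. H epi was below N epi by 2.02 (adjusted p = 0.134), which passed the test without N epi replicate 1 (-3.18, adjusted p = 2.57e-05) and without N epi replicate 2 (-0.85, adjusted p = 0.0343). Paclitaxel and hypoxia without epirubicin gave differences between -0.39 and -0.06, none past the test. Of these, the -0.34 in N tax against N passed in a fit of those conditions alone (adjusted p = 0.0367).

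CASP8 encodes the initiator caspase of the complex. On 213373_s_at it read 8.03 and 7.99 (N), 8.36 and 8.41 (H), 8.20 and 8.07 (N tax), 8.36 and 8.20 (H tax), 6.40 and 6.76 (N epi) and 5.99 and 5.79 (H epi). As with FADD, all 4 epirubicin arrays lay under the 8 others, here with H epi below N epi. Epirubicin lowered it 2.68-fold in normoxia (-1.42 ± 0.14, adjusted p = 0.000171) and 5.63-fold in hypoxia (-2.49 ± 0.14, adjusted p = 7.81e-06). In normoxia the difference was -1.24 without N epi replicate 1 (adjusted p = 0.000658) and -1.60 without replicate 2. H epi against N epi gave -0.69 (adjusted p = 0.0606), which passed without N epi replicate 1 (-0.87, adjusted p = 0.00575) or H epi replicate 1 (-0.79, adjusted p = 0.0336). Hypoxia without drug gave 0.38 (adjusted p = 0.152), past the test only after quantile normalization (0.46, adjusted p = 0.0309). Paclitaxel gave 0.13 in normoxia and -0.10 in hypoxia, with intervals from -0.20 to 0.46 and from -0.43 to 0.22. A dimmer probe set, 207686_s_at, sat within 0.01 of 3.86 on 9 of 12 arrays and did not follow these falls, with -0.0134 and -0.00432 for epirubicin.

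CFLAR encodes c-FLIP, the inhibitor that competes with caspase-8, and it is spliced into several forms. On its brightest probe set, 209939_x_at, it read 9.28 and 9.54 (N), 8.54 and 8.47 (H), 9.22 and 9.45 (N tax), 9.15 and 9.10 (H tax), 8.835 and 8.97 (N epi) and 9.07 and 8.79 (H epi). The H arrays were the lowest and did not overlap with any other. Hypoxia without drug lowered it 1.88-fold (-0.91 ± 0.14, adjusted p = 0.00811), a call lost without N replicate 2 or H replicate 1 (0.0694 and 0.0526). Against H, the signal was higher by 0.62 ± 0.14 when paclitaxel was added (adjusted p = 0.0129) and by 0.42 ± 0.14 when epirubicin was (adjusted p = 0.0308). In normoxia epirubicin lowered it by 0.51 (adjusted p = 0.0178), which came to -0.10 after median centring. It was -0.44 without N epi replicate 1 (adjusted p = 0.0835) and -0.58 without replicate 2 (adjusted p = 0.029). The rise with epirubicin in hypoxia was 0.96 after median centring (adjusted p = 0.000354) and 0.59 after quantile normalization (0.00477). These 3 drug calls were each lost on leaving out some arrays: H replicate 2 or H tax replicate 1 for paclitaxel (adjusted p up to 0.0689), H replicate 1, H replicate 2 or H epi replicate 1 for epirubicin in hypoxia (up to 0.15), and N replicate 2 or N epi replicate 1 in normoxia (up to 0.118).

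The 10 tested probe sets of CFLAR did not tell the same story, and 8 of them have names ending in _x_at, which Affymetrix gives to sets whose probes may match other transcripts. In H against N, 209939_x_at and 210563_x_at fell (-0.91 and -0.67, adjusted p = 0.00811 and 0.0273), and the other 8 lay between -0.41 and 0.22, none past the test. With epirubicin in hypoxia, 5 of the 10 fell, against the rise on 209939_x_at. 239629_at went from 5.15 and 5.22 in H to 2.23 and 2.67 in H epi, both below the presence threshold, and so was at least 4.11-fold lower (adjusted p = 7.86e-05). 211316_x_at fell by 1.37, 211317_s_at by 0.83, 211862_x_at by 0.59 and 208485_x_at by 0.58. In H tax against H all 10 differences were positive, from 0.05 to 0.95, and 4 passed the test. In H tax against N tax the sets went both ways. 209939_x_at gave -0.21 (adjusted p = 0.673), and 211317_s_at averaged 6.70 (N tax) and 6.48 (H tax). The largest rises were on 211862_x_at (6.37 and 7.03) and 208485_x_at (5.40 and 6.07). Over all members, 4 probe sets were called higher there, the TNFSF10 sets included, beside 255 of all 24151. In N epi against N the means of all 10 sets were lower. Of these, 210563_x_at, 210564_x_at, 208485_x_at and 237367_x_at missed the test (adjusted p = 0.159 to 0.391). Median centring moves the median of that comparison up by 0.41, which is more than the falls on these sets. Which forms of the transcript each set reads was not determined here, so no single direction is given for CFLAR with epirubicin in hypoxia.

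**Figure D4:**
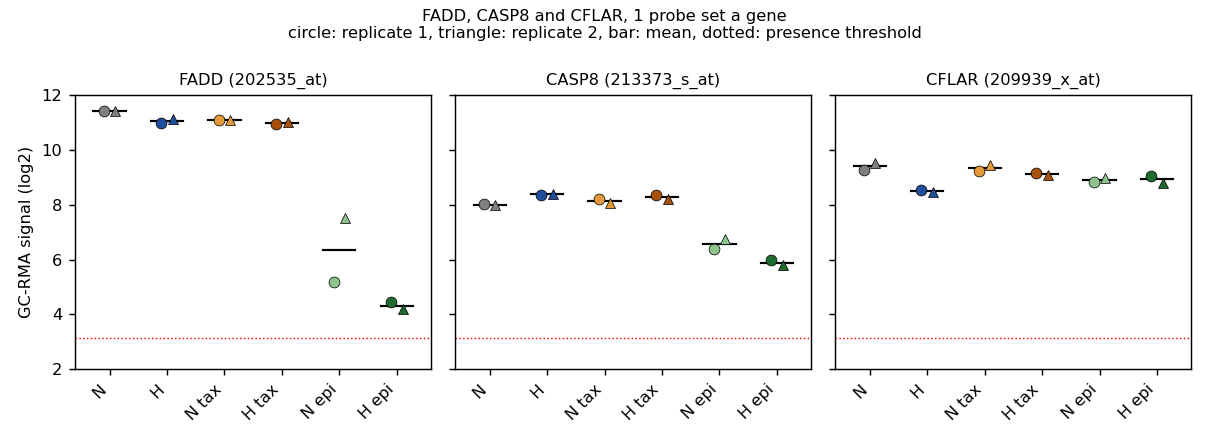
GC-RMA signal (log2) of FADD, CASP8 and CFLAR on the 12 arrays by condition, with replicates as circles and triangles, means as bars and the presence threshold as a dotted line. FADD and CASP8 lay lower on all 4 epirubicin arrays than on the other 8, and CFLAR was lowest in H.

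**Figure D5:**
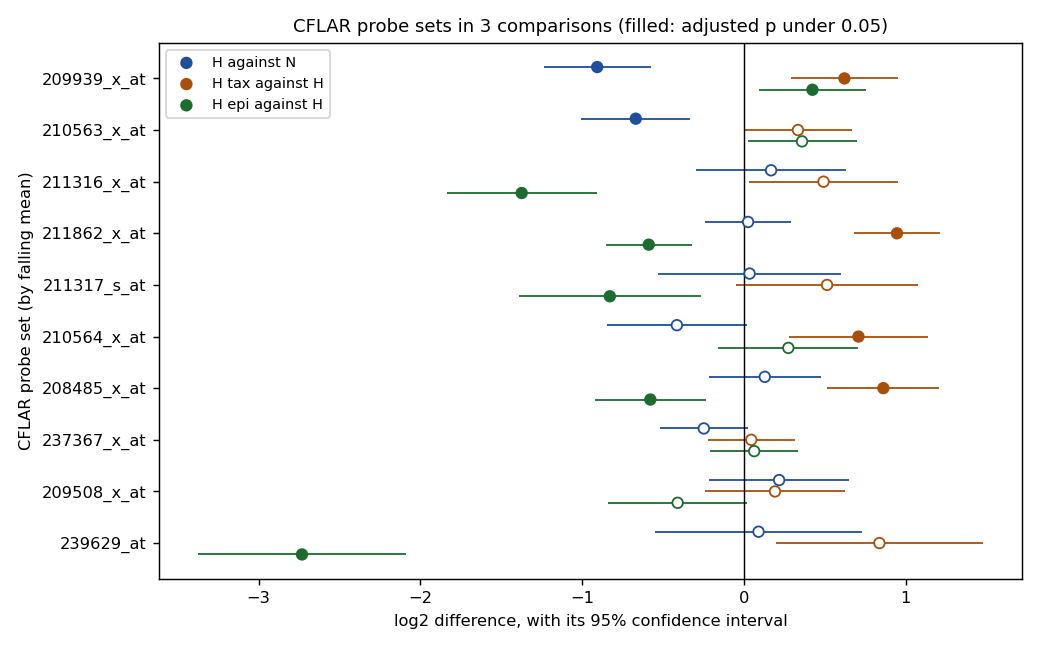
Log2 difference with its 95% confidence interval (x axis) for the 10 tested CFLAR probe sets (y axis, brightest at the top) in H against N, H tax against H and H epi against H, filled where the adjusted p was under 0.05. The points of H tax against H lay to the right of 0 on every set, while those of H epi against H ran from -2.73, fitted for a set below the presence threshold in H epi, to 0.42.

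Of 42 other genes of the pathway, listed by role, 36 had a probe set here and 26 were tested. In H against N, 1 rose and 4 fell, where 4.26% and 5.75% of all named genes did. TRADD, the adaptor of TNF receptor 1, rose by 0.64 (adjusted p = 0.026), while DFFB, a caspase-activated nuclease, fell from present to absent (at least 2.0-fold, adjusted p = 0.00636) and ITCH, a ubiquitin ligase that acts on c-FLIP, fell by 1.06 (adjusted p = 0.00388). In H tax against N tax limma called 0 of the 26, beside 0.982% of named genes higher and 0.268% lower. At an unadjusted p under 0.05 there were 2, with no share of named genes computed at that threshold. In H epi against N epi, 2 fell, where 1.49% of named genes were lower and 0.214% higher. They were OTULIN, a deubiquitinase of linear chains (-1.18, adjusted p = 0.0347), and TNFAIP8 (-1.40, adjusted p = 0.0464), whose product inhibits caspase-8. Without N epi replicate 2 they were -0.89 (adjusted p = 0.0486) and -1.07 (adjusted p = 0.11).

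With paclitaxel 3 of the 26 rose and 4 fell in normoxia, beside 8.94% of named genes higher and 15.0% lower. In hypoxia 6 rose and 5 fell, beside 13.3% and 18.2%. RBCK1 (HOIL-1, of the linear ubiquitin ligase) rose by 1.43 and 1.81, and ITCH 1.84-fold and 2.82-fold. CUL3, a ubiquitin ligase scaffold that modifies caspase-8, fell by 1.18 and 1.08, CASP6 fell by 1.07 in normoxia, and BID, the caspase-8 substrate, fell by 1.31 in hypoxia. CASP6 and BID were lower with paclitaxel at the other oxygen level too. CASP6 read 9.23 and 9.53 (H) against 8.40 and 8.70 (H tax). BID read 9.24 and 9.28 (N) against 8.10 and 8.54 (N tax).

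With epirubicin 6 of the 26 rose and 11 fell in normoxia, beside 24.2% of named genes higher and 30.8% lower. In hypoxia 7 rose and 10 fell, beside 29.5% and 36.2%. The medians of the 26 were -0.34 and -0.38 on the log2 scale, beside -0.01 and -0.03 over all named genes, and median centring moves all values of these comparisons up by 0.41 and 0.54. TNFRSF1A, the death receptor of TNF, was also far lower on the epirubicin arrays. It read between 10.25 and 10.80 on the 8 arrays without epirubicin, 4.77 and 8.14 (N epi) and 5.05 and 2.23 (H epi), the last below the presence threshold. It differed by -4.31 ± 1.09 SE in normoxia (adjusted p = 0.0106), and by -2.62 without N epi replicate 1 (adjusted p = 0.0529). In hypoxia it passed the test too (adjusted p = 0.000598), with no fold given because 1 of the H epi arrays was below the threshold. TNFAIP8 fell by 4.47 in hypoxia, and OTULIN fell by 2.75 in normoxia. Both were lower with epirubicin at the other oxygen level too. TNFAIP8 read 9.40 and 9.41 (N) against 6.82 and 7.47 (N epi). OTULIN read 8.73 and 8.44 (H) against 4.61 and 4.36 (H epi). SHARPIN, a partner of HOIL-1, rose by 1.38 and 1.77, PEA15, which binds FADD and caspase-8, rose by 0.85 in normoxia, and ITCH rose by 1.51 in hypoxia. PEA15 and ITCH were higher at the other oxygen level too. PEA15 read 12.635 and 12.67 (H) against 13.85 and 13.76 (H epi). ITCH read 8.55 and 8.70 (N) against 9.02 and 9.36 (N epi).

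The last comparisons asked whether the effect of hypoxia itself differed between drug settings. Between epirubicin and no drug, 4 of the 10 genes passed, where 2.53% of named genes were lower and 1.56% higher. TNFRSF10D, TNFSF10 and CASP8 were lower, and CFLAR was higher on its brightest probe set. The other tested CFLAR sets ran from -0.48 to 0.69, none past the test (adjusted p = 0.191 to 0.975). For TNFSF10 the hypoxia effect was 1.91 without drug and -0.05 with epirubicin, a difference of -1.96 ± 0.41 (adjusted p = 0.0394). For TNFRSF10D it was 1.21 and -0.10 (difference -1.31, adjusted p = 0.0484), for CASP8 0.38 and -0.69 (-1.07, adjusted p = 0.0299) and for CFLAR -0.91 and 0.03 (0.93, adjusted p = 0.0461). These calls were close to the threshold, and each was lost on leaving out 7 to 11 of the 12 arrays in turn.

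Between paclitaxel and no drug, limma called 0 of the 10, where 0.0357% of named genes were higher and 0.0714% lower. The hypoxia effect on TNFSF10 differed by 0.12 between them, with an interval from -0.81 to 1.05. Between paclitaxel and epirubicin 0 of the 10 were called, where 0.741% were higher and 0.107% lower. At an unadjusted p under 0.05 there were 2 of 10 in the first of these comparisons and 4 in the second. No share of named genes was computed at that threshold. TNFSF10 came closest, its hypoxia effect being 2.08 ± 0.41 larger with paclitaxel (adjusted p = 0.0688). This difference passed the test with the 6 other arrays added by title (1.98, adjusted p = 0.0237). It was 2.40 without N epi replicate 1 and 1.75 without N epi replicate 2. Under the same omissions, in that order, the difference was 3.07 and 0.74 for FADD and 1.02 and 0.65 for CASP8. Those fits leave 1 array in N epi.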

How the data were processed

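Affymetrix HG-U133 Plus 2.0 arrays measured total RNA of MDA-MB-231 cells. The authors computed probe set summaries with GC-RMA and deposited them as log2 values in 1 table. Their methods name alternative chip definitions from AffyProbeMiner, whereas the deposited table carries standard Affymetrix probe set names, so which probes make up a set cannot be told from these sources. The paper speaks of independent experiments in a table legend and of biological replicate samples in its methods.

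Groups were taken from titles and source names. In 6 of 18 arrays these named different drugs, so those arrays were left out and entered only in alternatives. A probe set was tested if some condition had it above the presence threshold of the study's methods (3.14 on the log2 scale) on each of its 2 arrays (24151 of 54613, with 62 controls set aside). Of the member probe sets, 10 did not pass and are not tested, and 2 that name TNFRSF10C with another gene were left out. Differences were fitted with limma 3.58.1 in R 4.3.3 in 1 model of 12 arrays without a block (6 residual and 2.28 prior degrees of freedom), two-sided, with Benjamini-Hochberg adjustment at 0.05, after a run on simulated data. With 2 arrays a condition the number of arrays limits the precision, and if the cultures were not separate the p-values measure only the spread between arrays.

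Named genes were the 10 members with all their probe sets, up to 2 largest rises and falls of the other pathway genes in each comparison of 2 conditions (past the test, no overlap), and the 5 genes most correlated with TNFSF10. The members and lists were chosen with earlier results of these data known. Alternatives were the 6 left-out arrays placed by their title or, separately, by their source name, a replicate block, no presence filter or a stricter one (linear signal above 17.68), quantile normalization, median centring, a fit of the compared conditions alone, other probe sets, and omission of single arrays. Gene names came from the platform table and promoters from RefSeq.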

Additional observations from a re-analysis of the deposited data

Results flagged for a closer look

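4 genes were singled out because the effect of hypoxia differed between epirubicin and no drug in a test of that difference. The difference was -1.96 for TNFSF10 (adjusted p = 0.0394), -1.31 for TNFRSF10D (adjusted p = 0.0484), -1.07 for CASP8 (adjusted p = 0.0299) and 0.93 for CFLAR (adjusted p = 0.0461), all on the log2 scale from limma. The direction was kept under every omission of 1 array. The call for TNFSF10 was lost in 9 of 12 omissions (either array of N, H, H tax or H epi, and N epi replicate 2, adjusted p = 0.0606 to 0.141), and without N epi replicate 2 the difference was -1.63. The call for TNFRSF10D was lost in 11 of 12 (all but N epi replicate 1, 0.053 to 0.17), that for CFLAR in 10 of 12 (all but N epi replicate 1 and H epi replicate 2, 0.0601 to 0.162) and that for CASP8 in 7 of 12 (either array of N, H or N tax, and H epi replicate 2, 0.0542 to 0.117). All 4 calls were lost with no presence filter (adjusted p = 0.123 for TNFSF10, 0.129 for TNFRSF10D, 0.0562 for CASP8 and 0.0874 for CFLAR) and in a fit of the compared conditions alone (0.0659, 0.0851, 0.0801 and 0.098). On other probe sets, TNFSF10 gave -1.87 on 214329_x_at (adjusted p = 0.0197) and -1.58 on 202687_s_at (adjusted p = 0.142), TNFRSF10D gave -1.13 on 210654_at (adjusted p = 0.165), CASP8 207686_s_at gave 0.01 and the CFLAR sets ran from -0.48 to 0.69.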

How the results depend on the processing

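Of the 34 calls on single genes, all kept direction and significance with the 6 left-out arrays added by title, and none was past the test when they were added by source name, where 5 changed sign: in N tax against N TNFRSF10A (-0.0282), TNFRSF10D (0.17) and FAS (-0.16), in N epi against N TNFRSF21 (0.0863), and in H tax against H FAS (-0.48). Added by source name, the count of members called was 0 in each of the 10 comparisons. Added by title it was 1 in H epi against N epi and 1 in the hypoxia effect of paclitaxel against epirubicin. With no presence filter it was 0 in H tax against N tax, 4 in H epi against H and 0 in the hypoxia effect of epirubicin against control. With median centring it was 1 in H tax against N tax. In a fit of the compared conditions alone it was 0 in H tax against N tax and 0 in epirubicin against control.

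The deviations of same-numbered arrays from their condition means correlated between -0.18 and 0.30, highest for N tax with H tax. With 2 arrays a condition, these values cannot settle whether same-numbered arrays shared an experiment. With a replicate block the count was 1 in H tax against N tax and 2 in epirubicin against control, and 31 of the 34 calls stayed past the test. Leaving out each array in turn, the count ran from 1 to 5 in H against N, 0 to 2 in H tax against N tax, 0 to 4 in H epi against N epi, 4 to 4 in N tax against N, 5 to 7 in N epi against N, 4 to 6 in H tax against H, 5 to 7 in H epi against H, 0 to 0 in the hypoxia effect of paclitaxel against control, 0 to 6 in epirubicin against control and 0 to 3 in paclitaxel against epirubicin. The share of named genes called was computed only for the main fit, quantile normalization and median centring. Without that share, the counts of members in the other fits cannot be read as a result about the members. The cause of the changes in count was not tested.

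Other probe sets changed the sign of CFLAR in H against N (0.168, 0.0257, 0.0349, 0.129, 0.218 and 0.0905), in H epi against H (-1.37, -0.59, -0.83, -0.58, -0.41 and -2.73, the last fitted for a set below the presence threshold in H epi) and in the hypoxia effect of epirubicin against control (-0.48, -0.0861, -0.30 and -0.31), and that of CASP8 in the last (0.00913). Of the values on other probe sets 35 stayed past the test, 36 kept direction only and 17 changed sign. Probe sets near their own lowest value (TNFRSF10C 234644_x_at, CASP8 207686_s_at) limit what can be read from them.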

Other observations

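The 6 arrays whose title and source name disagree had the following TNFSF10 signals on 202688_at, by title only: 6.64 (N), 8.196 (H), 6.08 (N tax), 7.90 (H tax), 6.76 (N epi) and 6.80 (H epi). Their FADD signals were 11.38, 10.75, 11.24, 11.03, 5.44 and 3.86 in the same order. Placed by title, the epirubicin arrays had the lowest FADD signals of these 6, as the epirubicin arrays did among those assigned to a condition. Which label is right was not tested, and no explanation is offered for the disagreement.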
